A study of Rattus norvegicus with 63 samples.

Results

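Heat shock proteins are chaperones that hold, fold or hand on other proteins, and cells make more of them when proteins unfold. In the cytosol, Hsp90 and Hsp70 machines also hold the glucocorticoid receptor in the form that binds its hormone, so a glucocorticoid acts on a receptor that these proteins carry. The genes described are the small heat shock protein Hspb1, the Hsp90 gene Hsp90aa1, the Hsp70 gene Hspa8 with its helpers Hsph1 and Dnaja1, and the mitochondrial chaperonin pair Hspd1 and Hspe1. They were taken by symbol, 7 of 10623 genes named on the arrays, and every probe set that the platform annotation gives to one of them was read. A probe set is a group of short probes for 1 transcript. There were 9 such probe sets among 15923 on the main array type, all above the floor for testing, and 18 among 8799 on the second type, of which 17 were tested.

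Total RNA of rat kidney was hybridised to 63 arrays. Injected rats had received the synthetic glucocorticoid methylprednisolone, and their kidneys were collected at 0.25, 0.5, 0.75, 1, 2, 4, 5, 5.5, 6, 7, 8, 12, 18, 30, 48 and 72 h, with 3 libraries per time. They were set against 4 libraries of untreated kidney at 0 h. A second array type, possibly with RNA of the same samples, was used for 3 libraries of 2 h, 3 of 6 h and 4 of 0 h. The labels name no dose, strain, sex, vehicle or hour of day, and untreated kidney was taken at 0 h alone, so hours after the injection, the injection itself and the hour of day cannot be told apart. Nor do the labels say that numbered samples are separate animals, so each p-value rests on the spread among these libraries, and part of that spread may be technical.

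Values are signals, meaning deposited intensities on a linear scale, whose trimmed mean was nearly equal on every array of a type. Differences are on the log2(signal + 7.63) scale with their standard error (SE), from 1 limma fit over 52 libraries, with Benjamini-Hochberg adjustment of p-values over all 9520 probe sets tested. A probe set was called at an adjusted p under 0.05. The times were pooled into 5 windows, each the mean of its times, and all differences from 0 h share the same 4 untreated libraries.

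Heat shock genes are switched on by heat shock factor 1, which binds inverted repeats of nGAAn in their promoters, while the core of the glucocorticoid receptor's site can be written ACANNNTGT. The promoters are shown so that they can be read beside the course of each gene, and because Hspd1 and Hspe1 lie head to head. They run from 250 bases before to 50 bases after the start of the RefSeq gene in the build GRCr8, a table that held 6 of the 7 genes. Capitals mark every match to GAANNTTC or TTCNNGAA, each of which is its own reverse complement, and matches that overlap make 1 run.
Hspb1 (chr12:26432252-26432551, minus strand): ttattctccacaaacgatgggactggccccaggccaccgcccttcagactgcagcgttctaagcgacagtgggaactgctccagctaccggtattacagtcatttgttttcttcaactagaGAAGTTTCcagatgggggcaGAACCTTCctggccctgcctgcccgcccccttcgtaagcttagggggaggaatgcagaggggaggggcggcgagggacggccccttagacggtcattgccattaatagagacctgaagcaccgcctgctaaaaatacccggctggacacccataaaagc
Hsph1 (chr12:10427118-10427417, plus strand): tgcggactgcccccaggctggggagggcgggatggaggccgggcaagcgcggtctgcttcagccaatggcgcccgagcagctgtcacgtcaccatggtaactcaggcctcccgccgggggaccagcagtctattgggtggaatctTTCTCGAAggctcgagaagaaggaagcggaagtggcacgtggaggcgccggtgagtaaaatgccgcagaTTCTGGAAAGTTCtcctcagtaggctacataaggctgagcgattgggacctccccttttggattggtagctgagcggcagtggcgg
Dnaja1 (chr5:60638154-60638453, plus strand): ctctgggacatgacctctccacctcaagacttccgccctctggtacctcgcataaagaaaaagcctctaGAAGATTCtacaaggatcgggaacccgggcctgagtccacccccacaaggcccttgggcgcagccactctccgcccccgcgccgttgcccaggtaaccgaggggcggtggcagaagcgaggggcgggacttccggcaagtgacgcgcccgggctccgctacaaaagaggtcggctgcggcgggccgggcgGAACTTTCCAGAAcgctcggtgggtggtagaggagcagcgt
Hspa8 (chr8:50080264-50080563, plus strand): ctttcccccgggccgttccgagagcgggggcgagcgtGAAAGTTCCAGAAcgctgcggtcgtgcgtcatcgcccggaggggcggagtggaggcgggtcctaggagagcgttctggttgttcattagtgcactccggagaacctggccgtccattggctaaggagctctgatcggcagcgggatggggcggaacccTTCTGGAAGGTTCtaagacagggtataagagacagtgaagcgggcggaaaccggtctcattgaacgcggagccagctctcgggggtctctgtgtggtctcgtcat
Hspe1 (chr9:64084077-64084376, plus strand): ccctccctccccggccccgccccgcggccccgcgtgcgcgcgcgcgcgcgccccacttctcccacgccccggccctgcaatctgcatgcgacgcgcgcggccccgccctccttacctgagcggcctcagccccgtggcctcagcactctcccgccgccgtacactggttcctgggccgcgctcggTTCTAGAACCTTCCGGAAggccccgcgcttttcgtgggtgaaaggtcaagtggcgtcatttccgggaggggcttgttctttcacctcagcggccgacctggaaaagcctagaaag

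All 6 promoters held GAANNTTC or TTCNNGAA, which 15.85% of the 33469 promoters in that table held. A run of 3 units, GAANNTTC followed by NNGAA or TTCNNGAA followed by NNTTC, stood in those of Hsph1, Dnaja1, Hspa8, Hspd1 and Hspe1, against 0.8% of all promoters. Hspb1 held 2 separate 8-letter matches, at positions -129 and -109 from its start, and no run of 3 units in this window. In Hsph1 the run began at -36, and in Dnaja1 at position 10, inside the transcript. Hspd1 lies on the opposite strand of chromosome 9 from Hspe1, their windows share 211 bases (64084077 to 64084287), and the run printed in capitals for Hspe1, which began at -65, is the same stretch of DNA that lies at -242 in the Hspd1 window. ACANNNTGT, its own reverse complement, matched in none of the 6 windows and in 6.86% of all promoters. A match is a description of letters and does not show that a factor binds there.

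Across the time course, Hspb1, Hsph1, Hsp90aa1 and Dnaja1 changed, while no change passed the test for Hspa8, Hspd1 or Hspe1. An F test over the 16 differences from 0 h called 5 of the 9 probe sets, 1 each of Hspb1, Hsph1 and Hsp90aa1 and both of Dnaja1, against 16.1% of all tested probe sets. Adjusted p-values from limma were 7.5e-06 for Hspb1, 0.00025 for Hsph1, 0.00041 for the Hsp90aa1 probe set 1372701_at, and 0.00056 and 0.0019 for Dnaja1. The other Hsp90aa1 probe set had an adjusted p of 0.095, Hspa8 of 0.27, Hspd1 of 0.88 and Hspe1 of 0.90. Both Hsp90aa1 probe sets also list the pseudogene Hsp90aa1-ps17 and the Hspa8 probe set also lists Haus8l2, so their signal may not come from 1 gene alone. RefSeq names 33 pseudogenes of Hspa8, 20 of Hspd1, 16 of Hsp90aa1, 4 of Dnaja1, 1 of Hspe1 and none of Hspb1 or Hsph1.

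**Figure D1:**
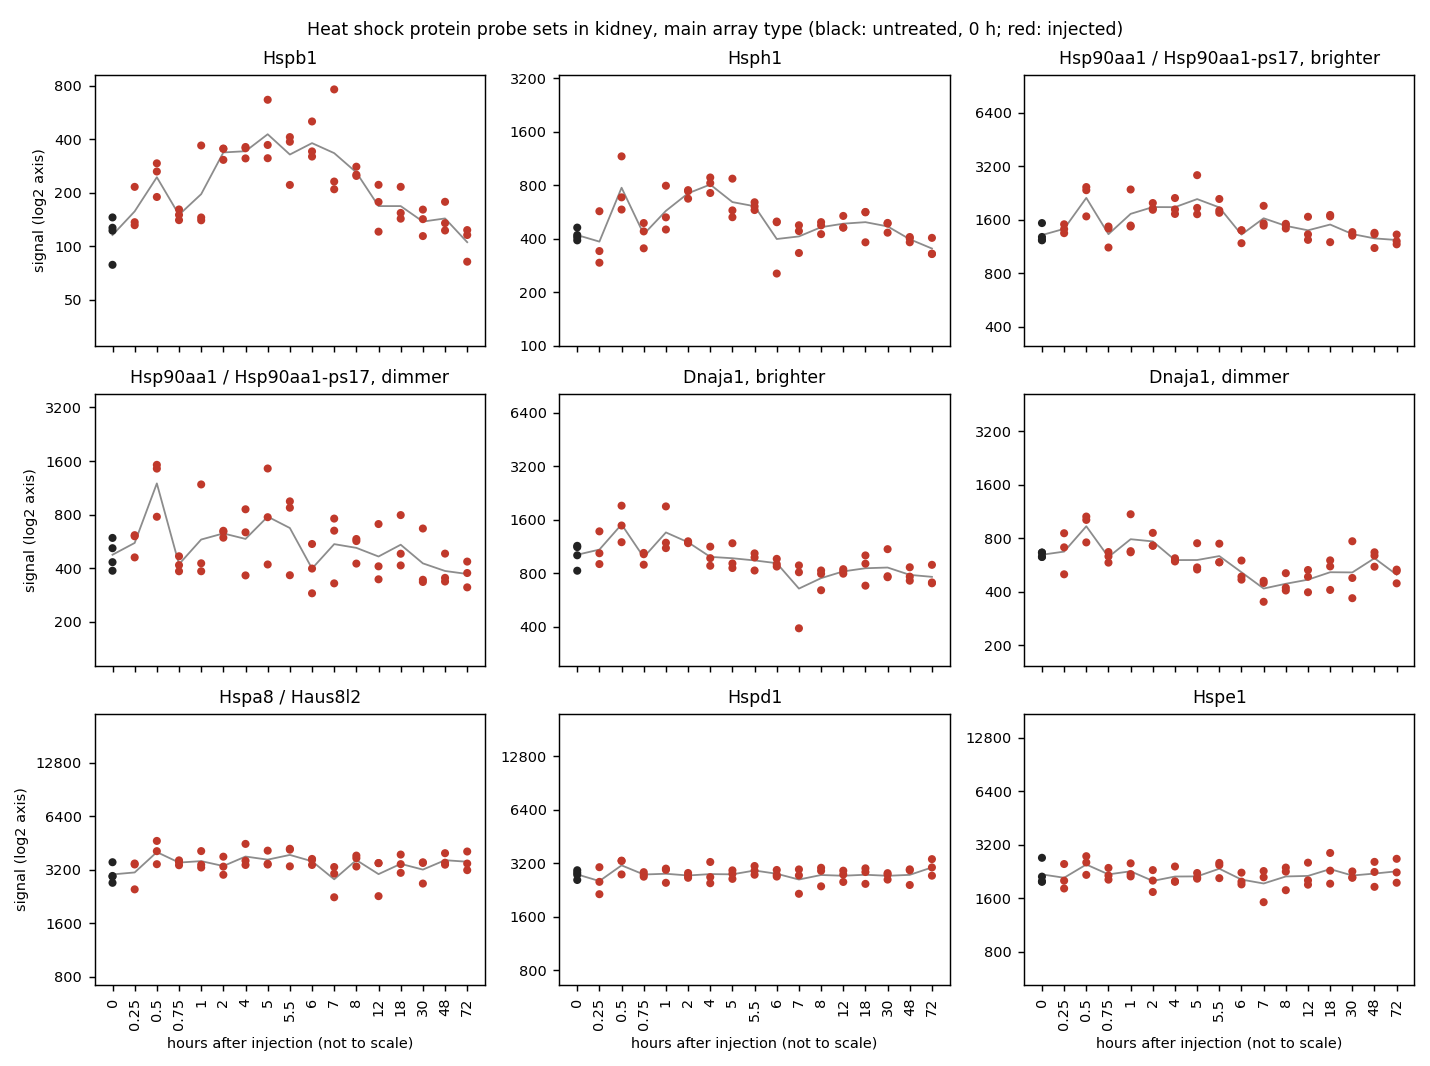
Signal of the 9 probe sets of the main array type in every library (points) with the mean of each time (grey line), on log2 axes that span the same range of folds; hours after injection are in order but not to scale. Hspb1 stayed above all untreated libraries from 2 to 8 h, whereas Hspd1 and Hspe1 stayed near their 0 h signal at every time.

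Hspb1 (probe set 1367577_at) encodes Hsp27, a small heat shock protein that binds unfolding proteins and actin filaments. Its signal was 354.9, 353.2 and 306.4 at 2 h and 356.2, 362.1 and 312.3 at 4 h, against 78.7, 122.5, 127.2 and 145.4 in untreated kidney. All 6 libraries of 2 to 4 h lay above all 4 untreated ones, and they lay close together. The difference was 1.49 ± 0.26 (SE; 2.82-fold, adjusted p = 0.00011, limma).

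Hspb1 was the one gene of the 7 still called at 5 to 8 h. Its signal there had a lowest value of 209.4, a median of 319.9 and a highest of 763.3 over 15 libraries, against 78.7 to 145.4 in untreated kidney, again without overlap. The difference was 1.502 ± 0.23 (adjusted p = 8.5e-06), and the window of 5 to 8 h differed from that of 2 to 4 h by 0.01 ± 0.20 (95% interval -0.39 to 0.41). Taken one time at a time, Hspb1 was called higher at 2, 4, 5, 5.5, 6, 7 and 8 h, with differences of 1.12 to 1.82. The 8 h call was lost in 32 of 52 fits that left out 1 library, and the 7 h call was lost without 7 h replicate 3 (adjusted p = 0.167), whose 763.3 stood beside 209.4 and 231.4. By 12 to 18 h the signal ran from 120.9 to 221.8, which overlapped the untreated range, and the difference was 0.51 ± 0.27 (adjusted p = 0.89). From 30 to 72 h it ran from 81.95 to 178, with a difference of 0.14 ± 0.25 (adjusted p = 0.97).

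Hsph1 (1388898_at) encodes Hsp110, which lets Hsp70 release its nucleotide. Its signal was 739.7, 671.2 and 749.6 at 2 h and 722.4, 821.3 and 883.1 at 4 h, against 461.4, 407, 419.2 and 391.2 in untreated kidney. The groups did not overlap, and Hsph1 rose by 0.85 ± 0.18 (1.80-fold, adjusted p = 0.0012). All libraries of 5 h (576.5, 869.8 and 527.9) and of 5.5 h (579.2, 607.3 and 640.6) were still above the untreated highest of 461.4. The 5 h difference of 0.61 ± 0.22 had an adjusted p of 0.084, which fell to 0.025, 0.0472 and 0.0474 in 3 alternatives that left out libraries. From 6 to 8 h the signal ran from 254.5 to 499.2 and overlapped the untreated range. For 5 to 8 h together, 11 of 15 libraries were above and 2 below all untreated ones, and the difference was 0.24 ± 0.16 (adjusted p = 0.41). Between 5 to 8 h and 2 to 4 h the difference was -0.61 ± 0.14 (adjusted p = 0.0067). That decline missed the threshold where arrays labelled b or c were dropped (adjusted p = 0.075).

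Hsp90aa1 encodes the stress-inducible cytosolic Hsp90. The probe set 1372701_at read 1816, 1847 and 1982 at 2 h and 1721, 2115 and 1824 at 4 h, against 1529, 1223, 1277 and 1231 in untreated kidney. There was no overlap, and the difference was 0.52 ± 0.13 (1.43-fold, adjusted p = 0.0076). At 5 to 8 h it was 0.33 ± 0.12 (adjusted p = 0.061), with 7 of 15 libraries above all untreated ones. That value passed the threshold in alternatives that left out early libraries (adjusted p = 0.040 and 0.029) or weighted arrays (0.013). It moved away from the threshold with quantile normalization (0.114), with a replicate block (0.185) and without the libraries, named below, that stood apart (0.239). The other Hsp90aa1 probe set, 1388850_at, varied far more between libraries of one time, from 418.8 to 1452 at 5 h for example, and its difference at 2 to 4 h was 0.34 ± 0.31 (adjusted p = 0.53).

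Of the 9 probe sets, then, 3 were called at 2 to 4 h, all higher, against 9.97% of all tested probe sets in either direction and 5.17% higher. At 5 to 8 h Hspb1 alone was called, against 9.71% in either direction and 4.98% higher. The median difference of all probe sets was -0.067 at 2 to 4 h and -0.035 at 5 to 8 h. Within 0.25 to 1 h no probe set of the 7 genes was called by limma (3 had an unadjusted p under 0.05), against 0.662% of all probe sets. None was called at 12 to 18 h (1 with an unadjusted p under 0.05), against 0.389%, or at 30 to 72 h (1 likewise), against 0.0%.

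**Figure D2:**
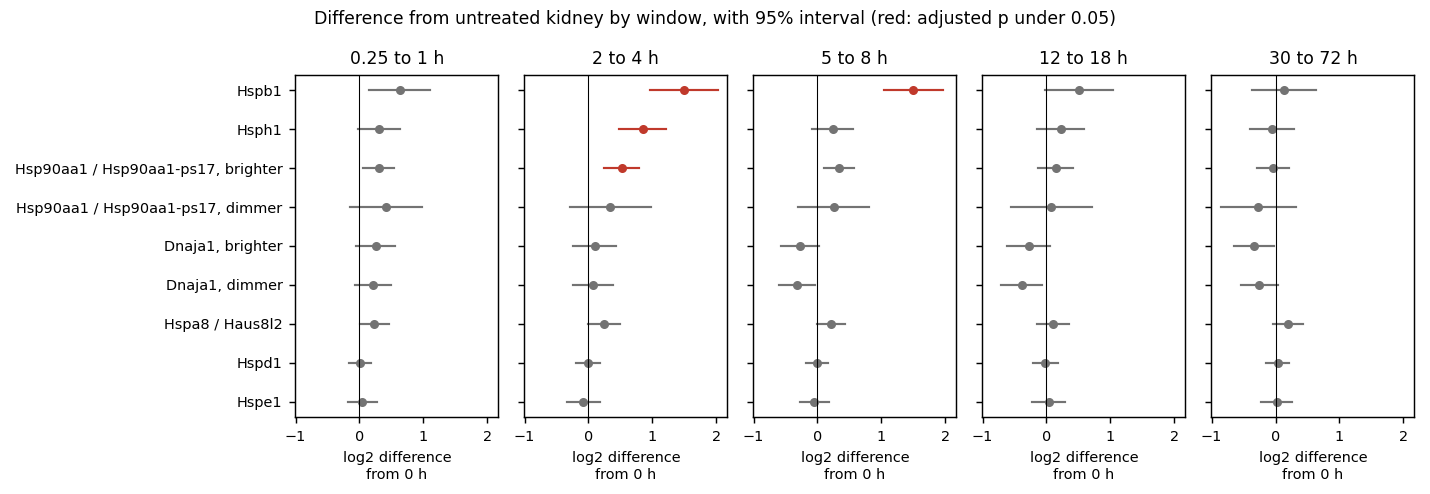
Log2 difference from untreated kidney (0 h) in each of the 5 windows with its 95% interval, for the 9 probe sets; red marks an adjusted p under 0.05. Hspb1, Hsph1 and the brighter Hsp90aa1 probe set were called at 2 to 4 h, and Hspb1 alone at 5 to 8 h.

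A comparison that leaves out the untreated libraries set 2 to 4 h against 30 to 72 h. Here 4 of the 9 probe sets were called higher, against 8.88% of all probe sets called higher and 19.4% in either direction. Hspb1 was higher by 1.36 ± 0.22 (adjusted p = 1.1e-05), Hsph1 by 0.91 ± 0.15 (1.7e-05), the Hsp90aa1 probe set 1372701_at by 0.56 ± 0.11 (0.00020) and the Dnaja1 probe set 1398819_at by 0.44 ± 0.14 (0.021). The Dnaja1 call was lost without 4 h replicate 1 (adjusted p = 0.058). Between 5 to 8 h and 2 to 4 h Hsph1 alone was called, against 1.61% of all probe sets called lower and 3.1% in either direction.

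Dnaja1 encodes an Hsp40, a J-domain protein that brings clients to Hsp70 and starts its ATPase. Its 2 probe sets followed one course, with their highest mean at 0.5 h and lower signals from 7 h on, and neither was called in any window against 0 h. The probe set 1398819_at read 1916, 1194 and 1482 at 0.5 h, 1179, 1193 and 1208 at 2 h, and 883.9, 809 and 391.4 at 7 h, beside 1120, 1139, 1008 and 825.2 in untreated kidney. At 5 to 8 h the differences from 0 h were -0.28 ± 0.15 (adjusted p = 0.27) and, for 1368852_at, -0.32 ± 0.14 (0.15). Between 5 to 8 h and 2 to 4 h they were -0.37 ± 0.13 (0.090) and -0.39 ± 0.12 (0.054). For 1368852_at, 13 of 15 libraries of 5 to 8 h and 6 of 6 of 12 to 18 h lay below all untreated ones. For 1398819_at it was 4 of 15 and 3 of 6. In each library of these times, 20.4% to 38.9% of all tested probe sets lay below all untreated ones. At 48 h the mean of 1368852_at was 616.3, beside 644.6 at 0 h. At 7 h 1368852_at fell by 0.62 ± 0.19 (adjusted p = 0.046), with 459.8, 447.1 and 350.4 against 626, 662, 663.4 and 628.1 in untreated kidney. That call was lost in 24 of 52 fits that left out 1 library, with an adjusted p of 0.37 without 7 h replicate 3.

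Hspa8 (1398240_at) encodes Hsc70, the Hsp70 that cells make at all times. Its signal ran from 3002 to 4478 at 2 to 4 h, against 2705 to 3532 in untreated kidney, with 3 of 6 libraries above all untreated ones. The difference was 0.24 ± 0.13 (95% interval -0.009 to 0.498, adjusted p = 0.22). In every window the difference was between 0.10 and 0.24, and none was called.

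Hspd1 (1386894_at) and Hspe1 (1386898_at) encode Hsp60 and Hsp10, the barrel and the lid of the chaperonin that folds proteins in the mitochondrial matrix. At 2 to 4 h Hspd1 read between 2475 and 3259, against 2581 to 2928 in untreated kidney, and Hspe1 between 1735 and 2414, against 1980 to 2702. Both sets of ranges overlapped. The Hspd1 difference was -0.01 ± 0.10 with a 95% interval of -0.20 to 0.19, and the Hspe1 difference -0.08 ± 0.13 with an interval of -0.34 to 0.17. Over the 5 windows Hspd1 stayed between -0.02 and 0.03 and Hspe1 between -0.08 and 0.05. These intervals are narrower than the rise of Hspb1 or Hsph1 at 2 to 4 h, but they leave room for smaller changes.

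In all 3 libraries of 0.5 h, and in 1 h replicate 2, several heat shock genes were high at once. In 0.5 h replicate 1, 8 of the 9 probe sets lay above all untreated libraries, in replicate 2 it was 6 and in replicate 3 all 9. The count was 8 for 1 h replicate 2, while the remaining 1 h libraries had 2 and 3. Of all 9520 tested probe sets, 23.0%, 17.8% and 21.9% lay above all untreated libraries in 0.5 h replicates 1, 2 and 3, and 19.9% in 1 h replicate 2. Among the 1215 probe sets with a mean signal at least that of Hsph1 the shares were 26.2%, 16.9%, 28.8% and 16.8%. The 2 h libraries had 6, 6 and 7 of the 9 probe sets above all untreated ones, beside 21.5%, 24.1% and 21.5% of all tested. In 5.5 h replicate 2 it was 7, beside 23.6%, so a count of 6 or 7 was not particular to 0.5 h. Hsph1 read 682.9, 583 and 1161 at 0.5 h, against 391.2 to 461.4 in untreated kidney, and 450.1, 793.7 and 527 at 1 h. The probe set 1372701_at of Hsp90aa1 read 2438, 1667 and 2341 at 0.5 h, against 1223 to 1529, and 1481, 2362 and 1462 at 1 h. A probe set shared by the stress-inducible Hsp70 genes Hspa1a and Hspa1b read 593.1, 507.5 and 131.7 at 0.5 h and 112.4, 546.6 and 79.8 at 1 h, against 82.52 to 154.5 in untreated kidney, and was not called at 0.5 h (adjusted p = 0.16).

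At 0.5 h 7 of the 9 probe sets had an unadjusted limma p under 0.05, as had 772 of all 9520. Of the 9, 2 were called higher, against 0.515% of all in either direction: the Hsp90aa1 probe set 1372701_at by 0.69 ± 0.16 (adjusted p = 0.023) and Hsph1 by 0.87 ± 0.22 (0.043). Both calls were lost on leaving out single libraries. Without 0.5 h replicate 3 the adjusted p was 0.28 for Hsp90aa1 and 0.88 for Hsph1, and 5 and 19 of the 52 fits that left out 1 library lost the call. At 0.75 h, between these times, Hsph1 read 439.3, 352.8 and 489.5 and Hsp90aa1 1425, 1114 and 1462, near the untreated range.

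Over all 16 times, single-time tests gave 16 calls for the 9 probe sets, 15 of them higher. Hspb1 made up 7 of these. The Hsp90aa1 probe set 1372701_at was called at 0.5, 2, 4, 5 and 5.5 h, Hsph1 at 0.5, 2 and 4 h, and Dnaja1 at 7 h. Among all probe sets the share called in either direction was 0.0735% at 0.25 h and 0.515% at 0.5 h, then 0.357% (0.75 h), 0.599% (1 h), 4.12% (2 h), 13.4% (4 h), 6.25% (5 h), 5.5% (5.5 h), 5.37% (6 h), 4.05% (7 h) and 2.01% (8 h). Later times had 0.168% (12 h), 0.189% (18 h) and 0.0% (30, 48 and 72 h). The calls of Hspb1 at 2, 4, 5, 5.5 and 6 h and of Hsph1 at 4 h stayed whichever library was left out. Each other single-time call was lost on leaving out at least 1 of the 52 libraries. At 5 h that of Hsp90aa1 was lost without 5 h replicate 2 (adjusted p = 0.16), which read 2844 beside 1715 and 1861, and at 2 h it was lost in 38 of 52 fits that left out 1 library. Its call at 4 h was lost without 0 h replicate 2, 3 or 4 or 4 h replicate 2 or 3, and that at 5.5 h without 0 h replicate 2, 3 or 4 or any library of 5.5 h. The Hsph1 call at 2 h was lost without 0 h replicate 2, 3 or 4 or any library of 2 h.

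Some lists of marker genes were also higher at 2 to 4 h. Kidney identity was clear, with all 11 of 11 marker genes on the main array above the test floor of 52.3, while 0 of 4 adipocyte and 1 of 6 adrenal markers were. Acute phase and hepatocyte genes, of which 4 of 9 were above the floor and Alb, Apoa1, Fgb, A2m and Hp were not, had a summed signal of 2699 to 3668 in the 6 libraries of 2 to 4 h, against 247.5 to 481.4 in untreated kidney. Fga and Fgg, which encode fibrinogen chains, carried that change, by 5.27 and 4.76 at 2 to 4 h. Macrophage and neutrophil genes, 9 of 11 above the floor, summed to 2674 to 3216 at 2 to 4 h, against 1443 to 1813, and 6 of their 9 tested genes rose. In bulk tissue more cells of a type and more RNA per cell cannot be told apart.

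The same lists stood high in some of the libraries named above. Among the 6 libraries of 0.5 and 1 h, the acute phase sum was 2867 in one (0.5 h replicate 3), 2746 in another (1 h replicate 2), and 322.9 to 394.6 in the rest, 0.5 h replicate 1 among them. It was 9344 in 5 h replicate 2 and 9350 in 7 h replicate 3, the libraries with the highest Hspb1 of their time. It was also high, at 6216, in 8 h replicate 1, where Hspb1 read 280.5, beside 253 and 248.9 in the rest of 8 h. After its values were seen, the library with the highest acute phase sum was set beside that with the highest heat shock signal at each of the 16 times. They were the same library at 10 times for Hspb1 and for Hsph1, at 8 for the probe set 1372701_at of Hsp90aa1 and 11 for 1388850_at, at 6 for Hspa8, at 6 and 3 for Dnaja1 (1398819_at and 1368852_at), at 4 for Hspd1 and at 3 for Hspe1. By the macrophage and neutrophil sum the matches were 11 for Hspb1, 10 for Hsph1, 9 and 7 for Hsp90aa1, 6 for Hspa8, 3 and 5 for Dnaja1, 5 for Hspd1 and 4 for Hspe1. Over all 9520 probe sets the median was 5 times by either sum, and the range from the 5th to the 95th percentile was 2 to 10. In the 9 libraries of 5 to 8 h whose acute phase sum did not exceed that of untreated kidney, Hspb1 read 209.4 to 411.6, above all untreated libraries. The macrophage and neutrophil sum was above the untreated highest of 1813 in all 15 libraries of 5 to 8 h, with 1949 as the lowest. At 5 to 8 h 5 of the 9 tested genes of that list were called higher. The part that the genes of these lists have in the heat shock signals was not tested.

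Some libraries stood apart as a whole. Those of 5 h (all 3), 0.25 h replicate 3 and 7 h replicate 3 had a mean correlation under 0.94 with the other libraries of their time. Without them Hspb1 was higher by 1.495 ± 0.21 at 2 to 4 h and by 1.28 ± 0.19 at 5 to 8 h (adjusted p = 2.5e-06 and 8.0e-06), Hsph1 by 0.85 ± 0.17 and Hsp90aa1 by 0.52 ± 0.12 at 2 to 4 h (0.00058 and 0.0024). The 3 probe sets called at 2 to 4 h were called in each of the 14 other settings tried and whichever of the 52 libraries was left out, with a highest adjusted p of 0.034 on leaving out 1 library.

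Between libraries of the same time, the mitochondrial pair varied together. Over 52 libraries the deviations of log2 signal from the mean of their time correlated with r = 0.811 and rho = 0.824 for Hspd1 and Hspe1, with a permutation p of 1e-05, the smallest that 100000 permutations can give, and adjusted p = 0.00021 over 21 pairs. Without the 2 libraries farthest from the median, r was 0.784. Much of this was shared by other strong signals: 121 further probe sets at least as bright as that of Hspe1 had a median r of 0.463 with Hspd1 and of 0.508 with Hspe1. Among 9519 probe sets Hspe1 ranked 2 by its r with Hspd1. Under quantile normalization the pair had r = 0.555 (adjusted p = 0.024).

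Of the 21 pairs, 8 had a positive and 1 a negative correlation with an adjusted permutation p under 0.05. Under quantile normalization 6 were positive and 1 negative. The share among pairs of other bright probe sets was not counted, so these counts do not set the 7 genes apart. Hspa8 went with Hspd1 (r = 0.677, rho = 0.648, adjusted p = 0.00032 and 0.00063) and with Hspe1 (r = 0.578, rho = 0.577, adjusted p = 0.0038 and 0.0034), and its median r with those bright probe sets was 0.373. Hsp90aa1 and Hsph1, both called at 2 to 4 h, correlated with r = 0.556 and rho = 0.481 (adjusted p = 0.012 and 0.017), and with r = 0.454 without 1 h replicate 2 and 5 h replicate 2. Hspb1 and Hspe1 went in opposite directions (r = -0.517, rho = -0.492, adjusted p = 0.0071 and 0.0099; r = -0.465 without 7 h replicate 3 and 1 h replicate 2). Hspb1 also had a median r of -0.188 with the bright probe sets.

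**Figure D3:**
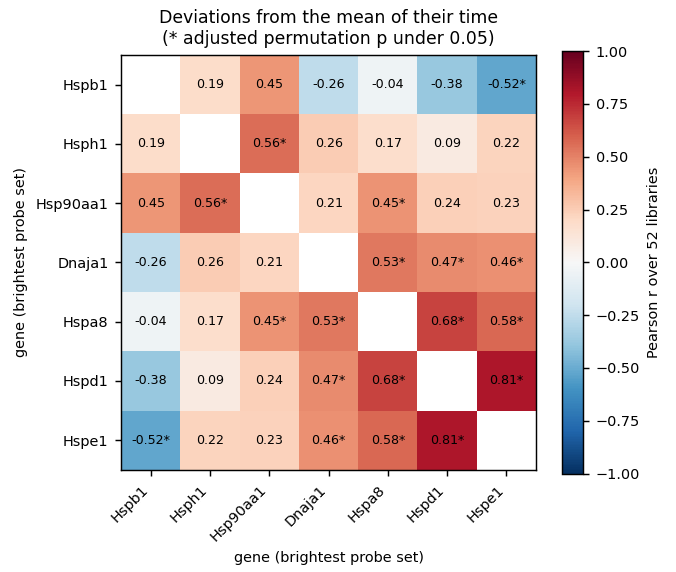
Pearson r between the genes over 52 libraries, computed on deviations of log2 signal from the mean of their time, with 1 probe set per gene; an asterisk marks an adjusted permutation p under 0.05. Hspd1 and Hspe1 had the highest r of the 21 pairs, at 0.81, and Hspb1 and Hspe1 the lowest, at -0.52.

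**Figure D4:**
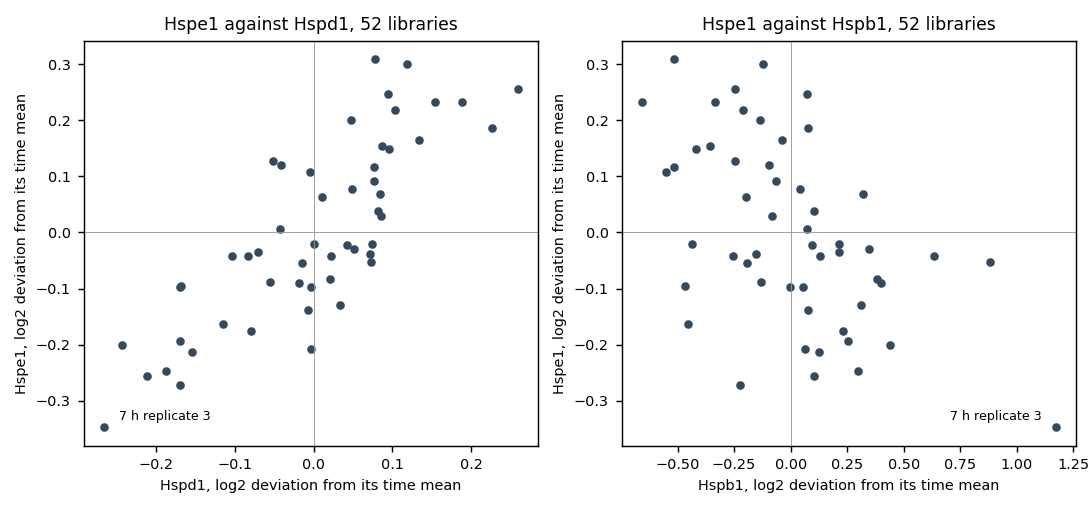
Log2 deviation of each of the 52 libraries from the mean of its time, Hspe1 against Hspd1 (left) and Hspe1 against Hspb1 (right). In 7 h replicate 3 Hspd1 and Hspe1 lay lowest and Hspb1 highest.

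The second array type carried other probes for the same genes, scaled and tested apart on the log2(signal + 3.56) scale over 5244 probe sets. Its libraries of the same number deviated together, though the labels do not say that they are paired. The differences and calls below come from a fit without a block. Values with the replicate as a block are therefore given where they change a call. At 2 h 5 of the 17 tested probe sets were called, all higher, against 9.8% of all probe sets in either direction and 4.82% higher. The Hspb1 probe set M86389cds_s_at read 479.8, 475.8 and 531.6 at 2 h, against 120.8, 160.4, 101.6 and 101.9 in untreated kidney, a difference of 2.02 ± 0.24 (adjusted p = 0.00068). Another, rc_AA998683_g_at, read 431.4, 600.2 and 507.2 at 2 h, against 108.9, 111.3, 161.8 and 172.8, and was higher by 1.88 ± 0.23 (0.00086). Neither overlapped between the groups, and the share of all probe sets without overlap was not counted.

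Hsph1 (rc_AI236601_at) read 571.4, 782.5 and 626.2 at 2 h, against 276.4, 237.2, 163.5 and 171.8 in untreated kidney, and rose by 1.64 ± 0.26 (3.12-fold, adjusted p = 0.0033, and 0.018 with the block). By 6 h it read 267.1, 152 and 253.1, within the untreated range but for 1 library, and the difference from 2 h was -1.57 ± 0.28 (adjusted p = 0.021). That fall missed the threshold without 2 h replicate 3, 6 h replicate 2 or 6 h replicate 3. Dnaja1 (U53922_at) read 1344, 2344 and 1301 at 2 h, against 898.2, 1019, 734.8 and 510.7, a difference of 1.06 ± 0.27 (adjusted p = 0.031, and 0.059 with the block). The call was also lost without 0 h replicate 3, 0 h replicate 4 or 2 h replicate 2. The Hspb1 probe set rc_AI176658_s_at was higher by 0.87 ± 0.25 (adjusted p = 0.048, and 0.062 with the block), a call lost in 8 of 10 fits that left out 1 library.

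At 6 h 2 probe sets were called, both of Hspb1 and both higher, against 2.35% in either direction and 1.56% higher. The probe set rc_AA998683_g_at read 412, 427.3 and 575.6 at 6 h, against 108.9 to 172.8 in untreated kidney, higher by 1.75 ± 0.23 (adjusted p = 0.0011). M86389cds_s_at read 235.9, 222.4 and 388.9 at 6 h, against 101.6 to 160.4, higher by 1.18 ± 0.24 (adjusted p = 0.023, but 0.093 with the block, 0.129 without 6 h replicate 3, and over 0.05 without 0 h replicate 1, 3 or 4). Between 6 h and 2 h the probe sets of Hsph1 and Dnaja1 were called lower, 2 of 17 against 0.744% of all probe sets called lower and 1.43% in either direction. The Dnaja1 difference of -1.35 ± 0.29 (adjusted p = 0.046) lost its call in 9 of 10 fits that left out 1 library.

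Probe sets of 1 gene disagreed on the second type. For Hspb1, rc_AA998683_at differed by 0.33 ± 0.19 at 2 h and rc_AA799438_at, which also lists Asb2, by -0.09 ± 0.25, and neither was called. The other Hsph1 probe set, AA108277_at, differed by 0.18 ± 0.31. The other Dnaja1 probe set, rc_AA800551_at, pointed the other way, with 244.6, 27.96 and 319.1 at 2 h, against 415.4, 354.5, 536.7 and 223.8 (-1.44 ± 0.69, adjusted p = 0.19). Both Hspa8 probe sets, M11942_s_at and rc_AI234604_s_at, had positive differences, 0.51 ± 0.18 and 0.58 ± 0.20, without passing the test (adjusted p = 0.086 and 0.088). Those of Hspd1 were 0.20 ± 0.14 (X54793_at) and 0.08 ± 0.25 (rc_AA858640_s_at), those of Hspe1 -0.23 ± 0.19 (rc_AI170613_at) and -0.29 ± 0.19 (rc_AI170613_g_at). Of the 3 Hsp90aa1 probe sets, rc_AI176460_s_at was too dim to test and lists 10 symbols, and the others differed by 0.34 ± 0.29 (rc_AA944397_at) and 0.64 ± 0.45 (rc_AI176546_at). No Hspa8, Hspd1, Hspe1 or Hsp90aa1 probe set was called on this type. At 6 h, however, the Hspe1 probe set rc_AI170613_at read 1717 to 1756, below all untreated libraries (2022 to 2249). In the other, rc_AI170613_g_at, 2 of 3 libraries of 6 h lay below all untreated ones. The share of all probe sets on this type that lay so was not counted.

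**Figure D5:**
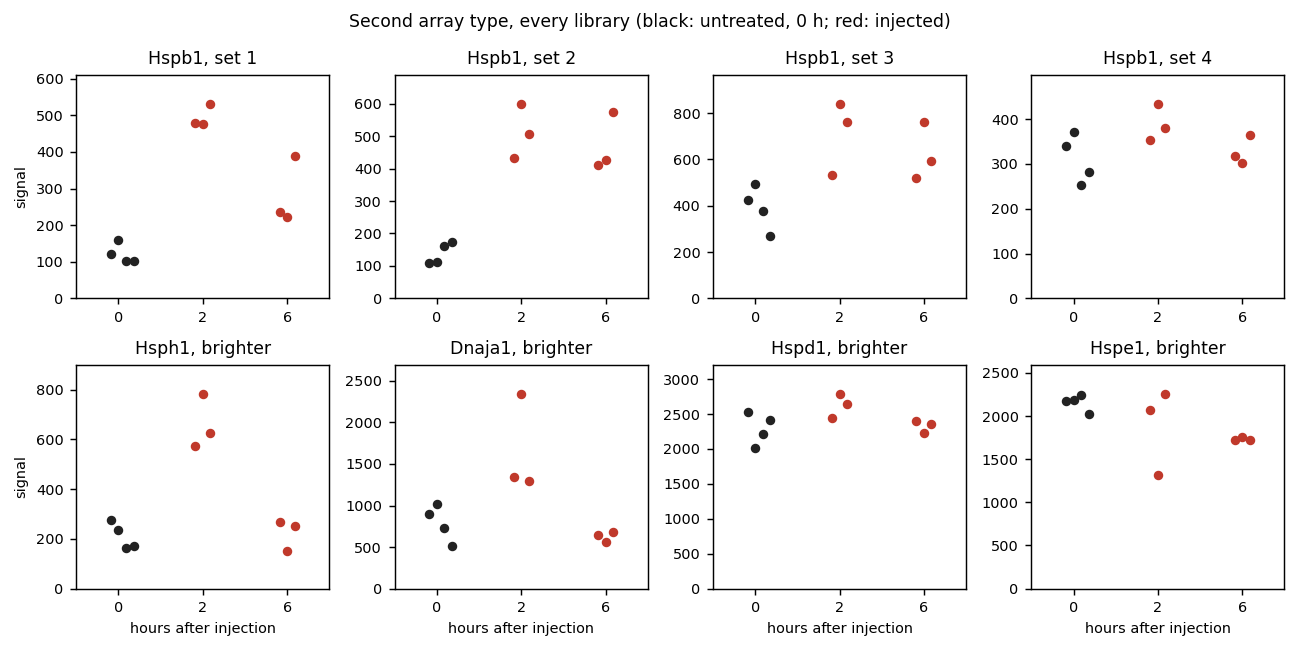
Signal in every library of the second array type at 0, 2 and 6 h, on linear axes from 0, for 8 probe sets; sets 1 to 4 of Hspb1 are M86389cds_s_at, rc_AA998683_g_at, rc_AI176658_s_at and rc_AA998683_at. Sets 1, 2 and 3 of Hspb1 stood above untreated kidney at 2 and 6 h, and the brighter probe sets of Hsph1 and Dnaja1 at 2 h. The brighter Hspd1 probe set overlapped at both times. The brighter Hspe1 probe set lay below untreated kidney at 6 h but was not called, and the other one, not shown, overlapped.

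The genes around these 7 in the same machines were read from lists. Of 15 Hsp90 relatives and cochaperones tested on the main type, 4 rose at 2 to 4 h and none fell, beside 5.17% of all probe sets called higher, with a median of 0.15 against -0.067 over all probe sets. Fkbp5, an immunophilin of the receptor complex and a glucocorticoid target, rose by 2.95 ± 0.19. Ahsa1, which speeds the ATPase of Hsp90, rose by 0.65 ± 0.15 (adjusted p = 0.0025), the constitutive Hsp90ab1 by 0.45 ± 0.13 (0.019) and Ptges3, the cochaperone p23, by 0.29 ± 0.10 (0.042). Of 10 J-domain genes, Dnajb1 alone rose, by 0.65 ± 0.15 (0.0022), and on the second type by 0.92 ± 0.20 at 2 h (0.015). Of 13 genes of the CCT chaperonin and prefoldin, Cct3 alone rose, by 0.41 ± 0.13 (0.042). A count of 1 in lists of 10 and 13 is near the 5.17% of all probe sets called higher.

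In other lists no gene passed the limma test at 2 to 4 h. These were 4 relatives of Hsp70 and Hsp110 (0 with an unadjusted p under 0.05), 3 small heat shock proteins (2), 6 nucleotide exchange factors (1), 10 genes of mitochondrial protein quality control (1) and 3 heat shock factors and regulators (1). Cryab, the small heat shock protein alpha B-crystallin, differed by 0.55 ± 0.24 (adjusted p = 0.15). The median of the 3 small heat shock proteins was -0.32, and 0.69 over 4 of them at 2 h on the second type, without a call. Against 30 to 72 h, 1 of the 3 on the main type was called lower at 2 to 4 h and none higher, beside 19.4% of all probe sets called in either direction. Among mitochondrial chaperones, the Hsp70 gene Hspa9 differed by -0.03 ± 0.15 and the Hsp90 gene Trap1 by 0.06 ± 0.11, and the quality control list was called for no gene in any of the 5 windows. Hsf1, heat shock factor 1, differed by 0.29 ± 0.12 (0.12) from 0 h, and was higher by 0.27 ± 0.10 at 2 to 4 h than at 30 to 72 h (0.046). Hsf2 differed by -0.25 ± 0.21 from 0 h (0.47).

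Chaperones of the endoplasmic reticulum, read for comparison, rose in 6 of 14 cases at 2 to 4 h, beside 5.17% of all probe sets called higher, with a median of 0.62. Herpud1, which serves the degradation of misfolded proteins there, rose by 2.52 ± 0.21, the Hsp70 gene Hspa5 by 1.21 ± 0.26 (adjusted p = 0.0014), the J-domain gene Dnajb9 by 0.96 ± 0.23 (0.0040) and the Hsp90 gene Hsp90b1 by 0.79 ± 0.21 (0.011). All 6 of 6 glucocorticoid targets taken as a check rose at 2 to 4 h. No test compared these lists with each other.

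Likeness of course was measured as Pearson r of mean log2 signal over the 17 times, against 1312 probe sets of 1 symbol called by the F test. For Hsph1 the most alike genes were Ahsa1 (0.936), the chemokine receptor Ackr3 (0.847) and Dnajb1 (0.839). For Hsp90aa1 they were Ptges3 (0.912), Tsc22d1 (0.874) and Pdia6 (0.866), and for Hspb1 Max (0.944), Cp, which encodes ceruloplasmin (0.932), and Aff1 (0.929). Dnaja1 was most like Rhob (0.835), Vcam1 (0.828) and Ripk4 (0.828). For Hspa8, Hspd1 and Hspe1, which were not called by the F test, no r exceeded 0.710. The points share the same arrays and the same 0 h libraries.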

How the data were processed

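The deposited intensities are the authors' values on a linear scale, and the probe-level algorithm is not given in the sources used. Each array had a mean of 150.03 to 150.04 on the main type, and 150.19 to 150.23 on the second, once the lowest and highest 2% of values were left out. Arrays carry no read depth, so their number limits the precision.

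Control probe sets were dropped, arrays a and b of 5 h replicate 1 were averaged, and log2(intensity + pseudocount) was taken, the pseudocount being the 10th percentile of its table (7.63 and 3.56), which understates changes of dim probe sets. The 40th percentile of mean log2 was the floor for testing, which left 9520 and 5244 probe sets. limma 3.58.1 in R 4.3.3 (lmFit, contrasts.fit, eBayes with trend) gave p-values, adjusted with Benjamini-Hochberg, and the fit was tested on simulated data. Correlations used deviations from time means and 2-sided permutation tests within times. Gene symbols are those of the platform annotation, brought up to date with a GRCr8 table.

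All probe sets of the 7 genes are named, with, from each list, up to 4 genes with the largest called difference in a window, any heat shock factor, and the 3 genes most alike in course. Genes named beyond that were chosen after their values were seen. The genes and lists were chosen with earlier results of these data known. Same-numbered libraries of the second type deviated together (r of 0.145 to 0.278 in all 9 pairs). Its fit had no block all the same, and values with the replicate as a block are given where they change a call. On the main type r ran from -0.528 to 0.489 over 408 pairs, and sample numbers were not taken as pairs. Alternatives covered pseudocount, filter, quantile normalization, moderation, array weights, the arrays used, a replicate block and leaving out each library.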

Additional observations from a re-analysis of the deposited data

How the results depend on the processing

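No called difference changed sign in 1789 comparisons with an alternative, while differences that were not called did in 292 of 12614. The largest of these was that of the Dnaja1 probe set rc_AA800551_at between 6 and 2 h (0.559, and -0.496 without 2 h replicate 2). A small one was Hspd1 at 5 to 8 h (-0.004, and 0.028 without libraries that stand apart). The count of probe sets of the 7 genes called at 2 to 4 h was 3 under all 14 other settings and without any 1 library, and it was 0 throughout for 0.25 to 1, 12 to 18 and 30 to 72 h. For 5 to 8 h against 0 h the count was 1, and 3 with array weights, whose fit stopped before it converged. It was 2 without 0.25 h replicate 2, 0.5 h replicate 3 and 1 h replicate 2, and 2 without 0.5 h replicates 1 and 3 and 1 h replicate 2. Both sets of libraries, and those that stand apart, were chosen after seeing the data. For 5 to 8 h against 2 to 4 h it was 1, and 2 with the filter at the 60th percentile, 2 with quantile normalization, 4 with array weights, 0 when arrays labelled b or c were dropped, 4 without libraries that stand apart, and 2 and 2 without the 2 early sets. For single times it was 16, and 8 with the replicate block and 9 when arrays labelled b or c were dropped. On the second type the replicate block gave 3 in place of 5 at 2 h and 1 in place of 2 at 6 h, and changed no call between 6 and 2 h. Leaving out each library gave 1 to 2 for 5 to 8 h against 0 h, 3 to 5 for 2 to 4 h against 30 to 72 h, 1 to 2 for 5 to 8 h against 2 to 4 h, 8 to 17 for single times and 5 to 6 for the F test, and on the second type 3 to 5 at 2 h, 1 to 2 at 6 h and 0 to 2 between 6 and 2 h. Counts over all probe sets ranged, under the other settings, over 35 to 146 (0.25 to 1 h), 637 to 2403 (2 to 4 h), 639 to 1383 (5 to 8 h), 21 to 65 (12 to 18 h), 0 to 1 (30 to 72 h), 867 to 3326 (2 to 4 h against 30 to 72 h), 89 to 2746 (5 to 8 h against 2 to 4 h), 2927 to 9311 (single times) and 911 to 4607 (F test), and on the second type over 423 to 561, 107 to 254 and 64 to 144. Without 1 library they moved by over 1.5 times for 0.25 to 1 h (36 to 77), 12 to 18 h (19 to 41) and 5 to 8 h against 2 to 4 h (137 to 549), and on the second type (235 to 740, 69 to 215 and 12 to 160). Correlated pairs numbered 7 to 10, against 9. The cause was not tested. On the main type sample numbers were not taken as pairs, and with the replicate block the 3 calls at 2 to 4 h stayed under the threshold, with 0.036 the highest adjusted p.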

Other observations

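The probe set shared by the stress-inducible Hsp70 genes Hspa1a and Hspa1b read 272.6, 230 and 264.5 at 2 h and 184.9, 300.6 and 205.4 at 4 h, against 154.5, 118.1, 129.7 and 82.52 in untreated kidney. All 6 libraries of 2 to 4 h lay above all untreated ones, a gap whose share over all probe sets was not counted. The difference of 0.97 ± 0.37 did not pass the limma test (adjusted p = 0.087). Against 30 to 72 h it was higher by 1.197 (adjusted p = 0.0038). Probe sets given to Hspa1a alone did not pass the test either, with 0.35 ± 0.22 at 2 to 4 h on the main type (adjusted p = 0.32) and 0.01 ± 0.65 at 2 h on the second type (0.99). Single libraries also stood high at other times, among them 399.4 in 18 h replicate 2, beside 116.3 and 120 in the others of 18 h.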
